A study of Mus musculus with 14 samples.

Results

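The genes described here are 8 of the sphingosine 1-phosphate pathway, out of 20284 genes named on the arrays. They are both sphingosine kinases (Sphk1 and Sphk2), the lyase Sgpl1, the phosphatase Sgpp1 and the receptors S1pr1 to S1pr4. They were chosen by symbol, and the set was proposed with the change of Sphk1 between the GMP genotypes in view. That contrast is therefore given for all 8 as a description with standard errors, and the values of Sphk1 are a description in every comparison. All 8 were on the arrays, by 9 probes, of which Sphk1 has 2. Sphk1, Sphk2, Sgpl1, Sgpp1, S1pr2, S1pr3 and S1pr4 were well above background on all 12 arrays of the larger design, and S1pr1 on those of 4 of the 6 groups.

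RNA of sorted cells of C57BL/6 mice was hybridised to 14 single-colour arrays, in 7 groups of 2; the labels give no age. Granulocyte-monocyte progenitors (GMP), the bone marrow cells that give rise to granulocytes and monocytes, came from wild-type mice and from mice labelled IRF8KO, a knockout of the transcription factor IRF8 by its label; both were gated as negative for lineage antigens, IL-7R, Sca-1 and CD115, and positive for CD117 and CD16/32. The other 5 groups were wild type. From marrow came common dendritic cell progenitors (CDP; negative for lineage antigens, IL-7R and Sca-1, CD117 intermediate, CD115 and CD135 positive), precursors of classical dendritic cells (pre-cDC; lineage and MHC-II negative, positive for CD11c, CD135 and CD172a) and neutrophils (Neu; CD11b positive and Ly6G high). Splenic classical dendritic cells (cDC) carried CD11c and MHC-II with either CD8 or CD4. Magnetic beads alone purified the CD4+ cDC, flow cytometry alone the neutrophils, and beads followed by flow cytometry the rest. Ly6C+ monocytes, which the title names, were not analysed here. Nothing in the labels says whether the 2 arrays of a group came from separate mice, so the tests measure the spread between these arrays, which may be technical.

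Sphingosine 1-phosphate (S1P) is a lipid signal made inside cells when a sphingosine kinase phosphorylates sphingosine. The lyase breaks it down irreversibly and the phosphatase turns it back into sphingosine, while exporters carry it out of the cell to receptors coupled to G proteins. Blood and lymph hold more S1P than tissues, and through S1pr1 that gradient guides lymphocytes and some progenitors out of marrow, spleen and lymph nodes.

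The sequences shown are the 250 bases before 2 annotated starts of Sphk1, printed because Sphk1 had the widest difference between the genotypes and IRF8 binds DNA together with ETS factors. RefSeq (GRCm38.p6) holds 12 promoter windows for 7 of the genes, of which 5 belong to Sphk1; S1pr1 is named only. In the first (start 1), on the plus strand at chr11:116530850-116531099, capitals mark the letters of an ETS-IRF composite. In the second (start 2), on the plus strand at chr11:116532194-116532443, capitals mark the reverse strand of AGATAA, the motif of erythroid and other GATA factors, and then of CCCACCC, which KLF factors bind.
Sphk1 start 1: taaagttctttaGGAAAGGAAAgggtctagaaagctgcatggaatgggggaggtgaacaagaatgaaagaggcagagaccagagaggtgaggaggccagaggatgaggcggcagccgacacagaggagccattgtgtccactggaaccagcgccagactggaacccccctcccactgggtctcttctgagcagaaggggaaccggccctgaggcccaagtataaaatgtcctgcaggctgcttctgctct
Sphk1 start 2: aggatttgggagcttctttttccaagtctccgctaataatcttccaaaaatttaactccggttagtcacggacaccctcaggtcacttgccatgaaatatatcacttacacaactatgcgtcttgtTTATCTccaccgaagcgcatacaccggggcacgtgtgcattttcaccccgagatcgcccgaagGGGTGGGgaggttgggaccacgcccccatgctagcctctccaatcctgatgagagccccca

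The composite begins at position -238 from start 1 and is the only one among the 12 windows. Over all 32851 windows of 300 bases, both strands searched, 2.72% hold such a composite. The search covered 7 motifs, among them GAGGAA (the PU.1 core, in 28.28% of windows) and GGGCGG (Sp/KLF, in 35.66%). AGATAA, which 11.18% of all windows hold, lies at position -124 from start 2 and in the window of a neighbouring start that shares 243 bases with it. CCCACCC is in 17.48% of windows, and among the 12 also in further windows of Sphk1 and in windows of Sphk2 and S1pr3. The IRF pair and TGATAA, with shares of 3.44% and 9.05%, were not found in these 12 windows. Matches are letters in a window, not sites, and the arrays measure no binding.

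A level is the log2 processed signal of a probe minus the 75th percentile of its array, so that 0 is that percentile and levels are set side by side for the same probe, not between genes. "Called" means an adjusted p under 0.05 from limma with Benjamini-Hochberg adjustment over all genes tested in the comparison; errors on differences are standard errors. On these 12 arrays, the scanner software flagged 39.4% to 53.7% of probes as well above background, replicate arrays correlated at 0.982 to 0.992 over probes, and the 75th percentile of the processed signal ran from 77.4 on the dimmest CDP array to 516 on the brightest WT GMP array. Both GMP groups share a slide, as do the CD8+ cDC and the neutrophils, while CDP and pre-cDC each have a slide of their own. In the comparisons with CDP or pre-cDC, and in that of neutrophils with GMP, slide and cell type therefore cannot be told apart. The CD4+ cDC arrays are of a smaller design on a slide of their own and are given as values only. Fewer cells of a type and less RNA per cell cannot be told apart in such bulk samples. Markers of the sorted populations were read as follows: Mpo was at 9.49 in WT GMP and 9.64 in IRF8KO GMP, Csf1r (CD115) and Flt3 (CD135) at 8.25 and 5.53 in CDP, Itgax (CD11c) and Flt3 at 6.08 and 5.68 in pre-cDC, Clec9a and Xcr1 at 6.54 and 3.38 in CD8+ cDC, Clec4a4 at 4.32 in CD4+ cDC and Camp at 11.12 in neutrophils. Not all of these set a group apart. Mpo was at 9.87 in CDP, and Flt3 and Itgax were at 6.13 and 7.14 in CD8+ cDC. Elane was at 8.48 in WT GMP, 9.08 in IRF8KO GMP and 3.47 in CDP. Cd4 read 3.35 in CD4+ cDC, 3.05 in CD8+ cDC and 3.64 in neutrophils.

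Irf8, the targeted gene, read 4.79 and 4.87 on the WT GMP arrays and 6.22 and 6.17 on the arrays labelled IRF8KO, a difference of 1.36 ± 0.07 (adjusted p = 1.39e-05). The probe read higher, not lower, in the arrays labelled IRF8KO. The labels do not say whether it lies in the deleted part of the gene, so it checks nothing about the deletion, and directions by genotype rest on the labels.

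Sphk1, the kinase that many growth and cytokine signals induce, stood highest in WT GMP and, on its brighter probe, lowest in the arrays labelled IRF8KO. Its brighter probe (A_51_P501248) read 2.01 and 1.87 in WT GMP and -3.11 and -3.25 in IRF8KO GMP. The other groups lay between: -0.99 and -1.26 in pre-cDC, -2.26 and -2.30 in CD8+ cDC, -2.10 and -2.52 in CDP and -2.44 and -2.20 in neutrophils. On the larger design no array of another group came within 2.86 of the WT GMP arrays. Levels of CD8+ cDC, CDP and neutrophils did not differ beyond their spread. The IRF8KO arrays lay below them by more than it. That step rests on the scaling. Processed signals were 55.4 and 47.0 on the IRF8KO arrays, 18.1 and 13.5 in CDP and 27.9 and 29.8 in neutrophils.

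The difference of IRF8KO from WT GMP was -5.12 ± 0.16, a 34.8-fold lower level, and -3.85 ± 0.08 with the normexp background correction. In size this lies above 99.9% of the 12134 genes tested there, where the median absolute difference was 0.18. That rank is a description only, since the set was proposed with this change in view. CDP differed from WT GMP by -4.25 ± 0.16 (normexp -2.55) and neutrophils by -4.26 ± 0.16 (normexp -2.83). Pre-cDC stood 1.18 ± 0.16 above CDP (normexp 0.15) and CD8+ cDC 1.16 ± 0.16 below pre-cDC (normexp -0.71, mean of both probes -1.95). CD8+ cDC and neutrophils, on 1 slide, differed by 0.03 ± 0.16, with values from -0.32 to 0.32 over the alternatives.

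The second Sphk1 probe (A_55_P2186005), designed to another transcript accession, read 0.01 and 0.04 in WT GMP and was well above background in no other group of the larger design. A fold against such a group is a lower bound, the bright mean over the higher, per array, of the dimmest signal called above background and the probe's own signal. WT GMP was thus at least 16.9-fold higher than IRF8KO GMP (means 0.03 and -5.04) and at least 6.76-fold to 14.2-fold higher than the other 4 groups. These bounds hold for the processed signal only, since no normexp value was taken for this probe. Both probes put WT GMP on top. The lowest mean on the second probe was that of CD8+ cDC, at -5.52, not above background.

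**Figure D1:**
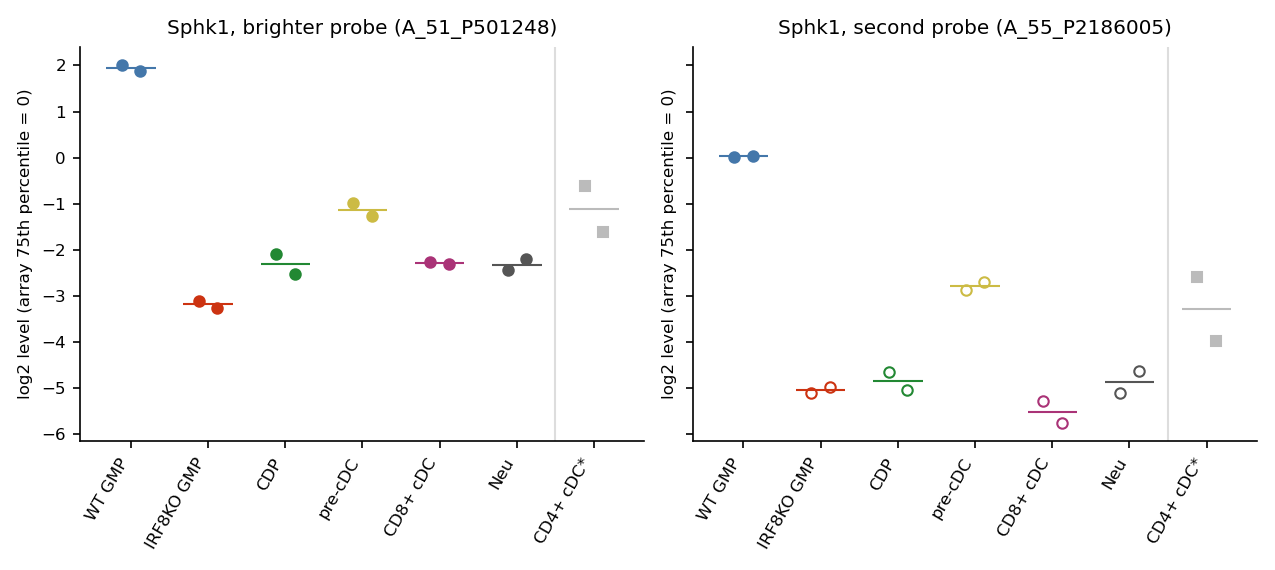
Levels of the 2 Sphk1 probes on each array (log2, array 75th percentile = 0); lines are group means, open symbols are arrays where the probe was not well above background, and squares are the smaller array design. On the second probe the WT GMP arrays (0.01 and 0.04) are the only filled circles.

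Marker sums of other lineages moved with Sphk1 between the GMP genotypes, though not every gene in them did. The summed level of 8 erythroid markers (linear, with the 75th percentile as 1) was 41.5 to 41.9 on the WT arrays and 6.94 to 7.13 on the IRF8KO arrays, with 7 of 8 above background in both. The sum of 7 megakaryocyte and platelet markers was 130 to 134 against 36.3 to 37.2, with all 7 above background. Of 8 basophil and mast cell markers 7 were above background, without Cma1, and summed to 134 to 136 against 58.6 to 60.7; 5 eosinophil markers summed to 93.9 to 94.1 against 31.2 to 33.3. Neutrophil markers ran the other way, at 10.4 on the lower WT array and 36.9 on the lower IRF8KO array with Ltf not above background in WT, as did monocyte markers, 23.6 to 24.1 against 54.1 to 55.1, with Fn1 not above background in WT. The dendritic cell sum was also higher on the IRF8KO arrays (38.9 to 39.2 against 21.1 to 21.9), as was the GMP sum (2320 to 2370 against 1850 to 1920). Single genes led some sums, such as Car1 (4.52 in WT, 0.11 in IRF8KO) and Pf4 (6.57 and 4.70). Tfrc of the erythroid list read 1.47 in WT and 1.63 in IRF8KO GMP, and Cxcr2 of the neutrophil list -0.30 in both. The part of these lists in the result was not tested.

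**Figure D2:**
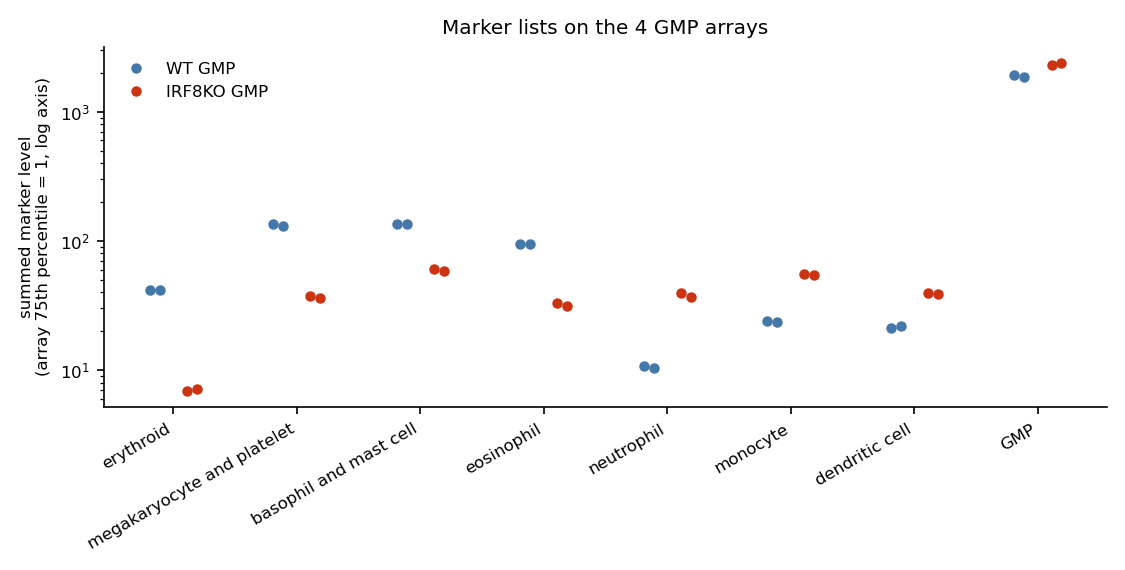
Summed levels of 8 marker lists on the 4 GMP arrays (log axis; the 75th percentile of an array is 1), 1 point per array. The erythroid sum is 41.5 to 41.9 on the WT arrays and 6.94 to 7.13 on the IRF8KO arrays, while the neutrophil and monocyte sums are higher on the IRF8KO arrays.

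Over the 12 arrays the genes most like Sphk1 were Rhag (r = 0.94), Rab40b (0.93) and Slc38a5 (0.92), of 8802 genes whose group means span at least 2. Rhag encodes a membrane glycoprotein of red cells, and Slc38a5 an amino acid transporter. Rhag and Rab40b were well above background on both arrays of WT GMP alone, at -2.57 and -2.63, so most of their values are at background. That group, where Sphk1 is also highest, sets their r. The erythroid list summed to 363 to 384 in CD8+ cDC, led by Hba-a1 at 7.57 and Hbb-bt at 7.48, where Sphk1 was low; Klf1, an erythroid transcription factor, was not above background there.

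Sphk2, the kinase found in the nucleus and mitochondria as well as the cytosol, ran in another order. It read 2.84 and 2.86 in WT GMP, 3.04 and 3.06 in IRF8KO GMP, 3.16 and 3.25 in CDP, 3.36 and 3.43 in pre-cDC, 3.54 and 3.59 in CD8+ cDC and 4.60 and 4.61 in neutrophils. No arrays of neighbouring groups overlapped. Neutrophils lay 1.75 ± 0.05 above WT GMP (adjusted p = 1.01e-08) and CD8+ cDC 1.04 ± 0.05 below neutrophils (adjusted p = 3.11e-07). IRF8KO GMP differed from WT GMP by 0.20 ± 0.05.

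The small steps of Sphk2 depended on the scaling. CDP over GMP was 0.35 ± 0.05 (adjusted p = 0.000444) but -0.16 with the percentile taken over probes detected on all arrays, and below 0 also with normexp, quantile normalization and the deposited table. Pre-cDC over CDP was 0.19 ± 0.05 (adjusted p = 0.0104), lost without CDP replicate 1 (0.15, adjusted p = 0.0722) or pre-cDC replicate 2 (0.15, adjusted p = 0.058), and -0.28 with arrays scaled to their medians. CD8+ cDC over pre-cDC was 0.17 ± 0.05 (adjusted p = 0.0197), lost without pre-cDC replicate 1 (0.13, adjusted p = 0.0966) or CD8+ cDC replicate 2 (0.14, adjusted p = 0.089) and under 3 other scalings (adjusted p = 0.082 to 0.17). The genes most like Sphk2 were Arhgap25, Antxr2 and Gpsm3 (r = 0.9958, 0.9952 and 0.9944).

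Sgpl1, the lyase of the endoplasmic reticulum, was lowest in WT GMP and highest in neutrophils. It read 2.61 and 2.68 in WT GMP, 3.40 and 3.32 in IRF8KO GMP, 4.14 and 4.15 in pre-cDC, 4.21 and 4.20 in CDP, 4.36 and 4.39 in CD8+ cDC and 5.05 and 5.06 in neutrophils. The arrays of no 2 groups overlapped. IRF8KO GMP lay 0.72 ± 0.05 above WT GMP, a 1.65-fold higher level.

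Sgpl1 rose by 1.56 ± 0.05 from GMP to CDP (adjusted p = 9.25e-08; 0.97 with normexp) and was 2.41 ± 0.05 higher in neutrophils than in GMP (adjusted p = 1.36e-09). CD8+ cDC lay 0.68 ± 0.05 below neutrophils (adjusted p = 3.52e-06) and 0.23 ± 0.05 above pre-cDC (adjusted p = 0.00371; 0.13 and 0.0508 in the deposited table). Pre-cDC and CDP differed by -0.06 ± 0.05 (adjusted p = 0.277), a value that was 0.15 with normexp, 0.52 under quantile normalization and -0.53 with arrays scaled to their medians. Its likest genes were 5430405H02Rik, Zfp710 and Rgs3 (r = 0.986, 0.984 and 0.983). Sphk2 and Sgpl1 themselves correlated at 0.86 over the 12 arrays, which share groups and slides; Sphk1 and Sgpl1 correlated at -0.63.

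Sgpp1, an S1P phosphatase of the endoplasmic reticulum, varied least of the 8, with group means spanning 0.97 where the median of 13552 detected genes was 2.57. It read 5.27 and 5.29 in CD8+ cDC, clear of the other groups of the larger design, which lay between 4.27 and 4.62. CD8+ cDC exceeded pre-cDC by 0.89 ± 0.06 (adjusted p = 3.07e-06) and neutrophils by 0.97 ± 0.06 (adjusted p = 7.39e-07). The genotypes differed by 0.10 ± 0.06. CDP over GMP was 0.17 ± 0.06 (adjusted p = 0.0262), a sign that turned under 4 alternatives (-0.35 to -0.43) and a call lost without any 1 of the CDP or WT GMP arrays (adjusted p = 0.0814 to 0.0957), with array medians (0.38) or with no filter on dim probes (0.072). Pre-cDC minus CDP was -0.22 ± 0.06 (adjusted p = 0.00668), 0.37 under quantile normalization, and neutrophils minus GMP -0.14 ± 0.06 (adjusted p = 0.0498), lost without either WT GMP array (adjusted p = 0.145 and 0.123) or neutrophil replicate 1 (0.227), with no filter (0.102) and with the mean of a gene's probes (0.0565). Tmeff1, Txndc15 and Iqcc were most like it (r = 0.989, 0.985 and 0.979). Tmeff1 was above background on both arrays of CD8+ cDC alone, so that group, where Sgpp1 is also highest, sets its r.

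**Figure D3:**
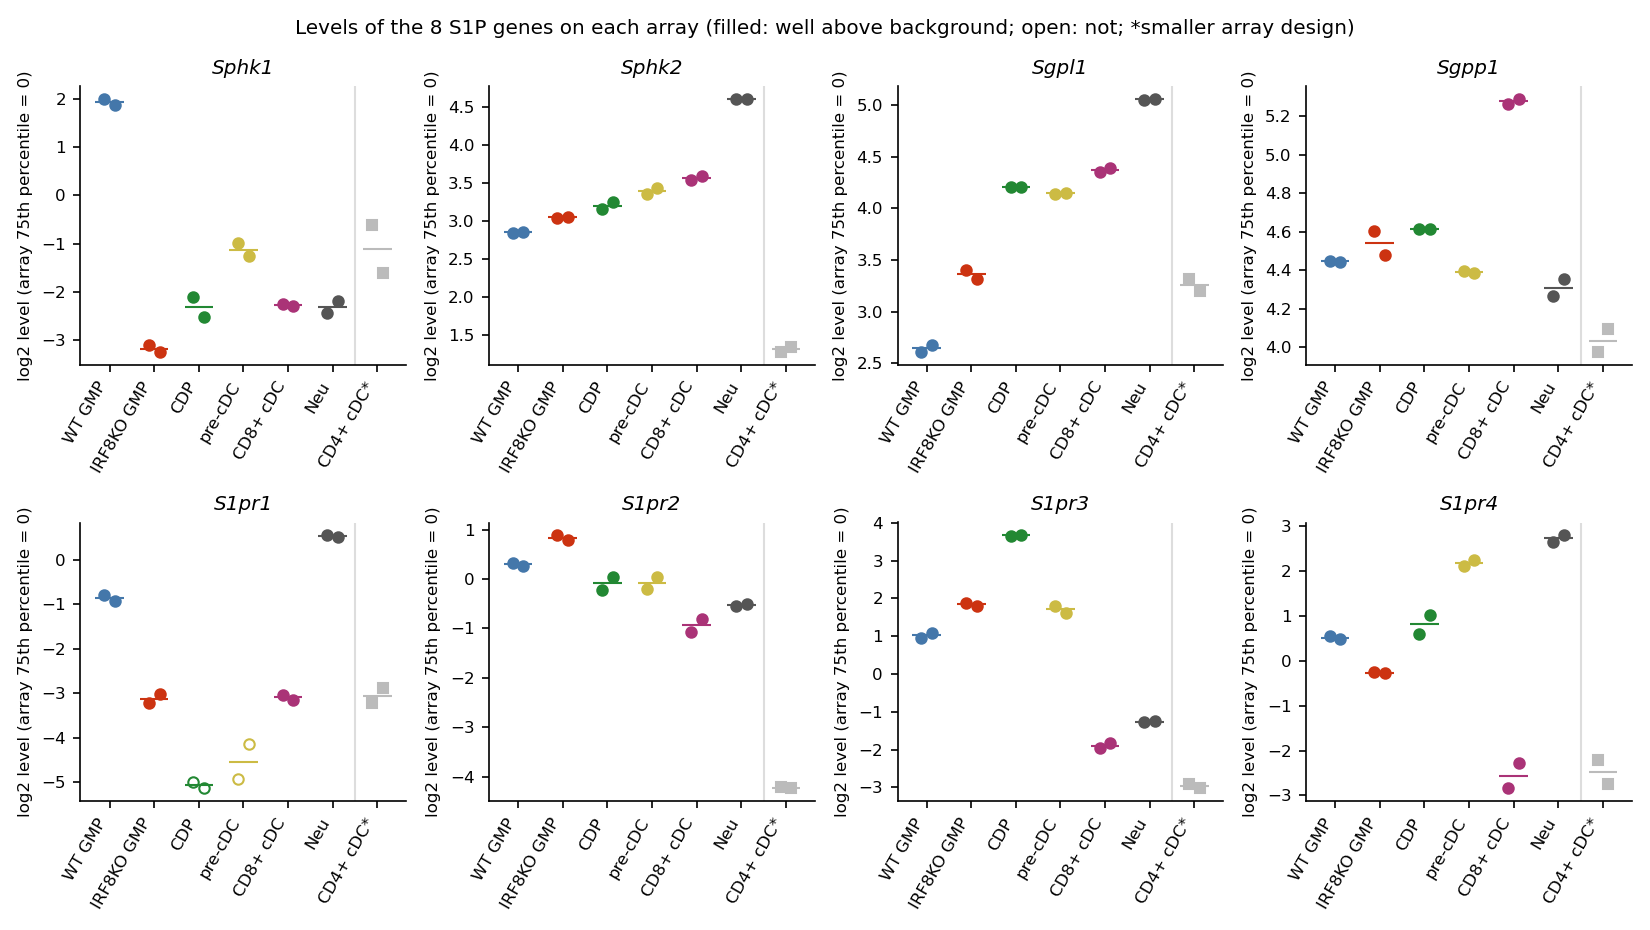
Level of each of the 8 genes on each array (log2, array 75th percentile = 0; brightest probe; axes differ between panels), with lines at group means, open symbols where the probe was not well above background, and squares for the smaller design. On the larger design Sphk1 is highest in WT GMP, S1pr3 in CDP, and Sphk2, Sgpl1, S1pr1 and S1pr4 in neutrophils.

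Of the receptors, S1pr1 and S1pr4 were highest in neutrophils and S1pr3 in CDP. S1pr2 varied less, with group means spanning 1.78 against a median of 2.57 over detected genes. S1pr1, the Gi-coupled receptor of egress, read 0.55 and 0.51 in neutrophils, -0.80 and -0.93 in WT GMP, -3.03 and -3.16 in CD8+ cDC and -3.22 and -3.03 in IRF8KO GMP. On the CDP arrays (-4.99 and -5.14) and the pre-cDC arrays (-4.94 and -4.14) it was not well above background. IRF8KO and CD8+ cDC arrays overlapped each other and lay apart from WT GMP.

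IRF8KO GMP were 2.26 ± 0.22 below WT GMP, 4.77-fold, larger in size than 98.6% of genes tested there, again as a description only. With normexp the difference was -1.41 ± 0.09. CDP were at least 4.28-fold lower than WT GMP (adjusted p = 1.01e-06; means -5.07 and -0.87), but with normexp the difference was only -0.42, short of that bound. Neutrophils exceeded GMP by 1.40 ± 0.22 (adjusted p = 0.000414), CDP at least 11.3-fold and pre-cDC at least 9.58-fold; with normexp they exceeded GMP by 1.13. CD8+ cDC lay 3.63 ± 0.22 below neutrophils (adjusted p = 1.04e-06; -2.16 with normexp). The bounds on S1pr1 hold for the processed signal only. CD8+ cDC over pre-cDC passed the test at 1.44 ± 0.22 (adjusted p = 0.000562), but no fold is given, since the lowest signal called above background on the pre-cDC arrays (-2.81 and -2.65) is above the CD8+ cDC mean of -3.10. With the normexp background correction it was -0.11 (adjusted p = 0.263). Pre-cDC and CDP were not compared. Ston2, Cpne2 and Arap3 were most like S1pr1 (r = 0.978, 0.958 and 0.956).

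S1pr2, which couples to G12/13 and restrains migration, read 0.89 and 0.79 in IRF8KO GMP, 0.33 and 0.27 in WT GMP, -0.19 and 0.04 in pre-cDC, -0.22 and 0.04 in CDP, -0.55 and -0.51 in neutrophils and -1.08 and -0.80 in CD8+ cDC. CDP and pre-cDC overlapped (0.01 ± 0.13, adjusted p = 0.925; -0.46 with arrays scaled to their medians and 0.57 with the percentile over detected probes). IRF8KO GMP lay 0.54 ± 0.13 above WT GMP.

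Neutrophils were 0.83 ± 0.13 below GMP (adjusted p = 0.000277) and CD8+ cDC 0.87 ± 0.13 below pre-cDC (adjusted p = 0.00037). CDP over GMP was -0.39 ± 0.13 (adjusted p = 0.0212), lost without WT GMP replicate 1 (adjusted p = 0.0898), WT GMP replicate 2 (0.0547) or CDP replicate 1 (-0.26, 0.133). CD8+ cDC over neutrophils was -0.41 ± 0.13 (adjusted p = 0.0156), lost without CD8+ cDC replicate 1 (-0.27, 0.107) or neutrophil replicate 2 (0.0619) and under 2 scalings (-0.17, 0.347, and -0.13, 0.345). Ptgds, Gstm3 and Gstm1 were most like it (r = 0.973, 0.966 and 0.957).

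S1pr3, a receptor coupled to Gi, Gq and G12/13, peaked in CDP at 3.66 and 3.67. It read 1.87 and 1.81 in IRF8KO GMP, 1.81 and 1.61 in pre-cDC, 0.96 and 1.10 in WT GMP, -1.27 and -1.26 in neutrophils and -1.95 and -1.84 in CD8+ cDC. IRF8KO GMP and pre-cDC did not differ beyond their spread. IRF8KO GMP lay 0.81 ± 0.08 above WT GMP, on the side of CDP.

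From GMP to CDP S1pr3 rose by 2.64 ± 0.08 (adjusted p = 7.93e-08, 6.22-fold; 1.98 with normexp), from CDP to pre-cDC it fell by 1.96 (SE 0.08, adjusted p = 3e-07), and CD8+ cDC lay 3.60 ± 0.08 below pre-cDC (adjusted p = 1.58e-08, 12.1-fold; -2.53 with normexp). Neutrophils were 2.30 ± 0.08 below GMP (adjusted p = 2.6e-08; -1.61 with normexp), and CD8+ cDC 0.63 ± 0.08 below neutrophils (adjusted p = 0.000132). Endothelial cells express S1pr3, and the summed level of 5 endothelial markers was 96.2 to 103 on the CDP arrays and 25.7 to 47.8 on those of the other 5 groups. Egfl7 at 6.29 and Kdr at 4.34 made up most of that CDP sum, while Cdh5 and Tek were not above background there. The sum of 4 monocyte markers peaked in CDP too, at 392 to 409 with all 4 above background, against 202 to 203 in pre-cDC, 118 to 122 in neutrophils and 23.6 to 24.1 in WT GMP; Csf1r, which encodes the gated CD115, is among them. The part of either list in the result was not tested. Ramp1, Cd79b and Kcng1 were most like S1pr3 (r = 0.994, 0.988 and 0.987).

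S1pr4, a receptor largely of blood cells, was at 2.65 and 2.79 in neutrophils, 2.10 and 2.23 in pre-cDC, 0.60 and 1.02 in CDP, 0.55 and 0.48 in WT GMP, -0.26 and -0.27 in IRF8KO GMP and -2.84 and -2.29 in CD8+ cDC. CDP and WT GMP did not differ beyond their spread (0.30 ± 0.19, adjusted p = 0.189; -0.04 with normexp and -0.22 with the percentile over detected probes). IRF8KO GMP lay 0.78 ± 0.19 below WT GMP.

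On 1 slide, CD8+ cDC minus neutrophils was -5.29 ± 0.19 (adjusted p = 3.59e-08, 39-fold; -3.68 with normexp), and CD8+ cDC minus pre-cDC was -4.73 ± 0.19 (adjusted p = 2.36e-07, 26.6-fold; -3.16 with normexp). Pre-cDC stood 1.36 ± 0.19 above CDP (adjusted p = 0.000241) and neutrophils 2.21 ± 0.19 above GMP (adjusted p = 7.74e-06). The summed neutrophil markers also went from 0.705 to 0.726 in CDP (1 of 5 above background) to between 49.6 and 51.9 in pre-cDC (4 of 5), against 7220 to 7840 in neutrophils, and basophil and mast cell markers from 3.15 to 3.23 in CDP to between 14.8 and 17.1 in pre-cDC. Markers of plasmacytoid dendritic cells went from 322 to 325 in CDP to between 528 and 550 in pre-cDC. Dendritic cell markers went from 76.9 to 80.1 in CDP to between 250 and 254 in pre-cDC. Monocyte markers fell from 392 to 409 in CDP to between 202 and 203 in pre-cDC. The part of these lists in the rise of S1pr4 from CDP to pre-cDC was not tested. S1pr4 and Sgpp1 correlated at -0.905 over the 12 arrays, with the CD8+ cDC arrays at 1 end of both. Nceh1, Vps37b and Grk6, a kinase of G protein-coupled receptors, were most like S1pr4 (r = 0.987, 0.984 and 0.978).

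On the CD4+ cDC arrays all 8 genes were above background. Sphk1 read -0.62 and -1.62, S1pr2 -4.22 and -4.24, S1pr3 -2.91 and -3.03 and S1pr4 -2.21 and -2.75. Against CD8+ cDC on the scale of probes common to both designs, Sphk1 was 2.26 higher, S1pr1 1.14 higher and S1pr4 1.19 higher, S1pr2 lay at -2.19 and Sphk2 at -1.15, and Sgpl1, Sgpp1 and S1pr3 were within 0.15. In the deposited table Sgpl1 and Sgpp1 were 0.21 and 0.27 higher in CD4+ cDC. These differences carry no test, since group, slide and design cannot be told apart.

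Counts across the 7 genes other than Sphk1 have to be read against a background in which most genes passed. From GMP to CDP 6 of 7 were called, 4 higher and 2 lower, where 78.0% of all genes tested were called, 51.9% higher and 26.2% lower. From CDP to pre-cDC 4 of the 6 tested were called, 2 each way, against 84.2% of all genes (23.9% higher and 60.3% lower). All 7 were called from pre-cDC to CD8+ cDC, 4 higher and 3 lower, against 74.7% (40.3% and 34.4%). All 7 were also called from GMP to neutrophils, 4 higher and 3 lower, against 92.4% (46.0% and 46.4%). In CD8+ cDC against neutrophils 1 was higher and 6 lower, all 7 called, against 85.8% (43.9% and 41.9%). With so many genes called, totals of 6 or 7 of 7 are near the background. The 4 of 6 from CDP to pre-cDC and the 6 of 7 lower in CD8+ cDC against neutrophils lay further from it. On so few genes nothing is read from these counts. The median absolute difference of those tested among the 7 was 0.39 from GMP to CDP (0.72 over all genes) and 0.21 from CDP to pre-cDC (0.88). It was 0.89 from pre-cDC to CD8+ cDC (0.66 over all genes), 1.75 from GMP to neutrophils (1.74) and 0.97 between CD8+ cDC and neutrophils (1.30). Between the genotypes Sphk1 and S1pr1 of the 8 were past 2-fold, where 6.19% of 12134 genes were; nothing is read from this count, since the contrast was used to propose the set.

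The median of all genes tested lay at 0.31 from GMP to CDP and at -0.54 from CDP to pre-cDC, and with the percentile over detected probes at -0.20 and 0.01. The share of called genes that were higher then moved from 66.5% to 40.4% and from 28.4% to 51.1%. From pre-cDC to CD8+ cDC that share was 53.9%, and 66.8% with array medians. The median over all genes in neutrophils minus GMP was -0.00 and went down to -0.48 with array medians, and in CD8+ cDC minus neutrophils it reached 0.28 with the percentile over detected probes.

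Of 60 other genes of sphingolipid metabolism and S1P signalling, 59 were on the arrays, of which 47 to 49 were tested in each comparison. Between the genotypes 11 of 47 were higher and 6 lower, where 25.1% of all genes tested were called, 15.1% higher and 10% lower. The list of S1P receptor signalling and trafficking had 5 higher and none lower of 15, and ceramide synthesis 3 each way of 13. Spns2, an S1P exporter, was at 4.64 in WT GMP and 3.64 in IRF8KO GMP (-1.003 ± 0.09, adjusted p = 0.00023). It was the 1 gene called of 4 tested in the list of other S1P genes. Mfsd2b of that list read 7.97 in WT GMP and 7.94 in IRF8KO GMP (adjusted p = 0.909). Ugcg, which makes glucosylceramide, fell by 0.95 (SE 0.17, adjusted p = 0.00545). Cd69, whose protein removes S1pr1 from the surface, was 0.92 ± 0.22 higher (adjusted p = 0.0198), lost without any 1 of the 4 GMP arrays (adjusted p = 0.0723 to 0.101).

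Spns2 was also the pathway gene that set WT GMP most apart from CDP (-4.98 ± 0.09, adjusted p = 1.03e-08) and from neutrophils (-5.29 ± 0.09, adjusted p = 5.71e-10), among those above background in both groups. Mfsd2b lay at -0.11 ± 0.11 in CDP minus GMP (adjusted p = 0.348). In neutrophils Mfsd2b was 1.06 ± 0.11 higher than in GMP (adjusted p = 1.96e-05). In CD8+ cDC Spns2 was at least 8.6-fold lower than in pre-cDC (adjusted p = 5.31e-08). With normexp that difference was -1.52, short of that bound. Klf2, a transcription factor that induces S1pr1 in lymphocytes, was not above background in WT GMP and was at least 38.1-fold higher in CDP (adjusted p = 2.6e-08; 3.47 with normexp) and at least 1520-fold higher in neutrophils (adjusted p = 2.16e-10; 8.82 with normexp), both short of the bound under normexp. Klf2 was at 1.63 in CDP and 3.25 in pre-cDC, where S1pr1 was not above background. It was at 4.81 in CD8+ cDC and at 6.95 in neutrophils, where S1pr1 was highest. WT GMP, with Klf2 not above background, had S1pr1 at -0.87, next below neutrophils. The relation of Klf2 to S1pr1 was not tested.

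From GMP to CDP 30 of 49 pathway genes tested rose and 13 fell (18 and 19 with the percentile over detected probes), where 51.9% of all genes were higher and 26.2% lower. Psap, the saposin precursor, rose by 3.01 ± 0.12 (adjusted p = 1.93e-07; 2.26 with normexp) and Naaa, an acid amidase of the ceramidase family, by 1.95 ± 0.08 (adjusted p = 3.46e-07). The receptor signalling list had 14 higher and 1 lower of 16 there, and ceramide synthesis 6 each way of 13, under the 75th percentile scaling, where the median of all genes lay at 0.31. From CDP to pre-cDC 16 of 47 were higher and 21 lower (27 and 9 with the percentile over detected probes, 7 and 28 with array medians), against 23.9% and 60.3% of all genes. Cd69 and Sptssa, a subunit of serine palmitoyltransferase, both fell by 1.90 (adjusted p = 7.38e-05 and 1.42e-07; -1.29 and -1.51 with normexp), Naaa rose by 1.68 ± 0.08 (adjusted p = 6.39e-07) and Gna12, a G12/13 subunit, was at least 2.48-fold higher (adjusted p = 0.000203; 0.18 with normexp, short of that bound).

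In CD8+ cDC 17 of 48 were higher and 20 lower than in pre-cDC, against 40.3% and 34.4% of all genes. Plpp1, a lipid phosphatase that acts on S1P at the surface, rose by 6.11 ± 0.46 (adjusted p = 7.75e-06; 4.83 with normexp), Naaa by 4.35 ± 0.08 (adjusted p = 7.1e-09), and Rac2, a GTPase of blood cell migration, fell by 2.45 (adjusted p = 1.18e-08). Neutrophils had 26 of 47 higher and 17 lower than GMP, against 46.0% and 46.4% of all genes, with the receptor signalling list at 13 higher and 3 lower of 16 tested. There Arrb2, an arrestin, rose by 5.09 ± 0.19 (adjusted p = 3.72e-08) and Degs1, the dihydroceramide desaturase, by 4.81 ± 0.08 (adjusted p = 3.69e-10). In CD8+ cDC against neutrophils 16 of 47 were higher and 27 lower, where 85.8% of all genes were called, 43.9% higher and 41.9% lower. All 4 ceramidases tested were higher and 13 of 14 receptor signalling genes lower. Of those ceramidases, Asah2 was not above background in neutrophils, with a bound of only 1.15-fold. Naaa was 5.79 ± 0.08 higher (adjusted p = 3.25e-10). Plpp1 was at least 175-fold higher (adjusted p = 4.45e-07), and with normexp 5.31, short of that bound. Arrb2 lay at -4.93 ± 0.19 (adjusted p = 5.74e-08) and Rac2 at -4.53 ± 0.05 (adjusted p = 1.35e-10).

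**Figure D4:**
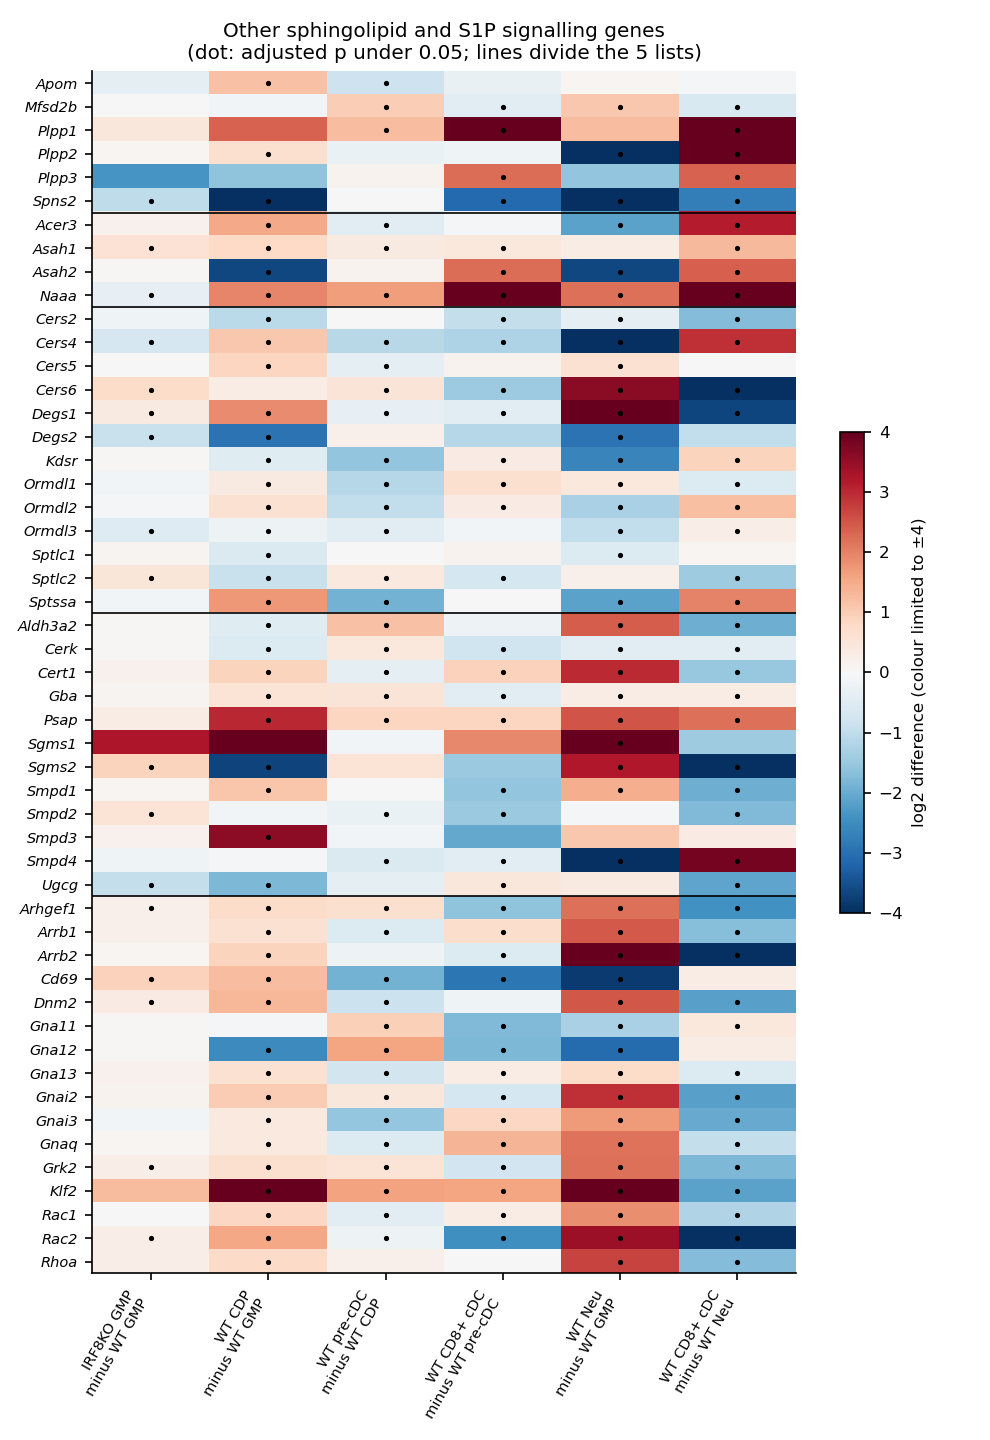
Differences of the 51 other pathway genes that the fit kept (rows, in 5 lists divided by lines) in 6 comparisons (columns); colour is the log2 difference, limited to 4 either way and drawn also where a group was not above background, and dots mark adjusted p under 0.05. Spns2 is lower in CDP and in neutrophils than in GMP, and Naaa is higher in CD8+ cDC than in pre-cDC and neutrophils.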

How the data were processed

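Scanner output of 14 single-colour arrays was analysed. Spot intensities were made by the authors with Agilent Feature Extraction 10.7.3.1, per the file headers: background-subtracted and detrended, not normalized between arrays. The deposited table of intensities, whose making no source describes, had the same median (46.02) in all columns and served as an alternative. Control and outlier spots were dropped (107 to 211 outlier spots per array), log2 values averaged per probe and each array's 75th percentile subtracted. Probes were named through RefSeq (GRCm38.p6, names only); a gene took its brightest probe, and a probe was above background where a share of at least 0.5 of its spots was flagged so. limma 3.58.1 (R 4.3.3; lmFit, contrasts, eBayes, two-sided) was fitted to all 12 arrays of the larger design together, over the 13552 genes that both arrays of some group showed above background (total degrees of freedom 7.56). A comparison tested the genes that both arrays of either group showed above background. The script was tested on simulated data. The number of arrays limits the precision.

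The 8 genes and all lists were chosen with earlier results of these data known. Named pathway genes were, per comparison, the 3 called genes of largest difference above background in both groups and the called gene of largest bound; likeness was Pearson's r over 12 arrays. The files hold no mean signal column, so normexp (offset 50) used median signals. The replicate numbers did not pair the arrays (correlation of deviations -0.061 to 0.039).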

Additional observations from a re-analysis of the deposited data

How the results depend on the processing

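The counts of the 8 genes called or past 2-fold stayed within 1.5 times of their values under every alternative run, and the other pathway genes (alternatives chosen after seeing the data) likewise except between the genotypes, where 17 calls became 8 with arrays scaled to their medians and 8 to 12 without 1 array (9 without WT GMP replicate 2, 8 without IRF8KO replicate 1 and 10 without IRF8KO replicate 2). All genes called there fell from 3049 to 1483 with array medians and to between 1848 and 1992 without 1 array; the lone array is assumed to vary like the other groups.

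Signs of values called under at least 1 setting, and of untested CD4+ cDC values, turned as follows; the cause was not tested. For CDP minus GMP, Sphk2 was -0.166 with normexp, -0.036 with quantile normalization, -0.163 with the percentile over detected probes and -0.034 in the deposited table, and Sgpp1 -0.432, -0.407, -0.345 and -0.394. For pre-cDC minus CDP, Sgpp1 was 0.075, 0.371, 0.333 and 0.395, and Sgpl1 0.518, 0.494 and 0.555 with the last 3; with array medians Sphk2 was -0.278 and S1pr2 -0.455. S1pr1 in CD8+ cDC minus pre-cDC was -0.112 with normexp. For CD4+ minus CD8+ cDC, S1pr3 was 0.02 on shared probes and 0.186 in the deposited table, where Sgpl1 was 0.205 and Sgpp1 0.268. Values with no call on either side turned too: Sgpl1 in pre-cDC minus CDP (0.151 with normexp), S1pr4 in CDP minus GMP (-0.042 with normexp, -0.217 with the percentile over detected probes), S1pr1 in pre-cDC minus CDP (-0.505 with normexp), S1pr2 in pre-cDC minus CDP (-0.116 without CDP replicate 1, -0.105 without pre-cDC replicate 2), and Sphk1 in CD8+ cDC minus neutrophils (-0.315 to -0.087 under 4 alternatives).

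With the replicate number as a block, Sgpp1 in neutrophils minus GMP lost its call (-0.136, adjusted p = 0.0726) and no other call of the 7 genes changed; the numbers do not pair the arrays. Signal over background limits S1pr1 in CDP and pre-cDC, on arrays whose 75th percentile lay between 77.4 and 164 in processed signal.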
